A study of Cervus nippon with 12 samples.

Results

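The miRNAs of the miR-199, miR-214 and miR-3120 cluster were described in small RNA libraries of antler cells from sika deer (Cervus nippon). Members were all listed names that carry miR-199, miR-214 or miR-3120 with any letter or arm suffix, which gave 6 of the 545 names in each library, namely miR-199a-3p, miR-199a-5p, miR-199b, miR-199c, miR-214 and miR-3120. All 6 had reads in each of the 12 libraries, and all 6 passed the filter on low counts in every comparison. The deer reads were named after cattle miRNAs, and the names of miR-199b, miR-199c, miR-214 and miR-3120 do not state which arm of the hairpin was read. miR-3604 was left out because its reads differed from those of miR-199a-3p by at most 34 reads per library, or 0.128%, so that the same reads were listed under both names.

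The libraries came from wild-type cells in 4 groups of 3. Reserve mesenchyme cells (RMCs), the stem-like cells of the growing antler tip, were grown in serum-containing medium, collected in centrifuge tubes and given chondrogenic medium for 0 days (CP_0), 7 days (CP_7) or 14 days (CP_14). The fourth group was cultured antler chondrocytes (CC), which are differentiated cartilage cells. The study's methods state 3 biological replicate experiments for each tissue type, and the labels do not tie the libraries to animals or cultures. p-values measure the spread between these libraries, which may be partly technical. CC differed from the RMC groups in the source of the cells and in sequencing depth as well as in differentiation. The study's methods describe centrifuge tubes and chondrogenic medium for RMCs only, so that culture format and medium may differ too. All of these cannot be told apart. No uninduced cells were sampled at 7 or 14 days, so that induction and time in culture cannot be told apart either.

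miRNAs are short RNAs that lower the output of messenger RNAs with a matching site. Each is cut from a hairpin whose 5' arm (5p) and 3' arm (3p) can both give a mature miRNA, and the 2 arms bind different targets. In mammals miR-199a and miR-214 hairpins lie together in DNM3OS, a non-coding RNA transcribed from the strand opposite to the dynamin gene DNM3, and this locus is known for its activity in the mesenchyme of the developing skeleton. Other miR-199 hairpins lie opposite further dynamin genes. miR-3120 comes from the DNM3 strand itself, where its hairpin is the mirror of the miR-214 hairpin. In cartilage and bone precursors miR-199a and miR-214 are known as regulators of chondrogenic and osteogenic differentiation. No genome positions or sequences were analysed here.

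Sequencing depth was lowest for CP_7, at 539455 to 1032029 reads, and highest for CC, at 9714090 to 10256572. CP_0 libraries held 2973442 to 4097304 reads and CP_14 libraries 2791559 to 3864900. miR-21-5p alone took a mean share of 75.2% for CC, 60.3% for CP_0, 48.2% for CP_14 and 23.2% for CP_7. Levels are therefore given as RPM, the reads on a miRNA per 1000000 reads of the library, divided by a composition factor (TMM), computed over all 12 libraries. Each comparison of 2 groups had its own TMM factors. The cartilage markers miR-140, miR-455-5p and miR-455-3p were read in all 12 libraries, at a summed 9043 to 11420 RPM before TMM. In TMM-normalized RPM they summed to 5083 to 5764 in CP_7, 9851 to 11400 in CP_0 and CP_14 and 16880 to 18400 in CC. The sum hides changes in opposite directions. On the log2 scale, CP_7 differed from CP_0 by -1.03 for miR-140, 1.43 for miR-455-3p and 0.25 for miR-455-5p (not called). CC differed from CP_7 by 1.46 for miR-140, 0.77 for miR-455-5p and -0.70 for miR-455-3p. The erythroid markers miR-451, miR-144 and miR-486 summed to 35 and 50 reads in CP_0 replicates 1 and 2 but to 15245 in CP_0 replicate 3. They summed to 17 to 150 reads in CP_7 and 13472 to 14964 in CP_14 and CC, with miR-144 at 0 in 9 libraries. Depth differed between these groups, and in TMM-normalized RPM the erythroid sums were 3729 to 5053 in CP_14 but 2132 to 2609 in CC. Before TMM the 4 muscle markers summed to 4536 to 6633 RPM in CP_7, against 535.5 to 683 in CP_0, and to 1685 to 1756 in CP_14 against 719 to 752 in CC. With TMM the contrasts were smaller, at 2169 to 3937 in CP_7 against 620.6 to 797.9 in CP_0, and 1660 to 1803 in CP_14 against 1156 to 1285 in CC. The pair of endothelial markers, both arms of miR-126, summed to 3083 RPM in CP_7 replicate 3 and at most 323 RPM elsewhere before TMM (1474 and at most 191.5 with TMM). The 4 leukocyte markers summed to at most 114 reads and the 6 of 7 epithelial markers listed to at most 159. The part of these cells in the results was not tested. Without CP_0 replicate 3, 1 of 18 results on members that use CP_0 left its side of the threshold (miR-3120 in CP_14 against CP_0), which bears on that library alone and not on the marker levels of the other groups.

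The 6 members together took 3.16% ± 0.24 of all reads in CP_7 (SD, n = 3, as for the shares that follow). They took 1.33% ± 0.084 in CP_14, 0.846% ± 0.073 in CP_0 and 0.647% ± 0.036 in CC. The 4 groups did not overlap in this share, and it was highest where that of miR-21-5p was lowest. It is a share of reads before TMM. The TMM factors were 0.5592 to 0.6505 in CC and 0.8466 to 0.9283 in CP_0. Divided by these, the summed members were higher in CC than in CP_0, so that the order of these groups turned. In such bulk samples, fewer cells that carry a miRNA and less of it per cell cannot be told apart. Within the member reads, the 2 arms of miR-199a made up most of every library. miR-199a-3p held 44.3% ± 2.8 of member reads in CC, against 58.8% ± 2.3 (CP_0), 71.5% ± 2.1 (CP_7) and 78.1% ± 2.6 (CP_14) in the RMC groups. miR-199a-5p held 44.1% ± 2.6 in CC, against 19.2% ± 0.96, 16.3% ± 1.3 and 10.9% ± 1.7 in the RMC groups in the same order. miR-199b held 18.6% ± 1.5 in CP_0 and 6.66% ± 0.41 in CC, and miR-199c, miR-214 and miR-3120 never held more than 1.56%, 3.15% and 1.52% of them.

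**Figure D1:**
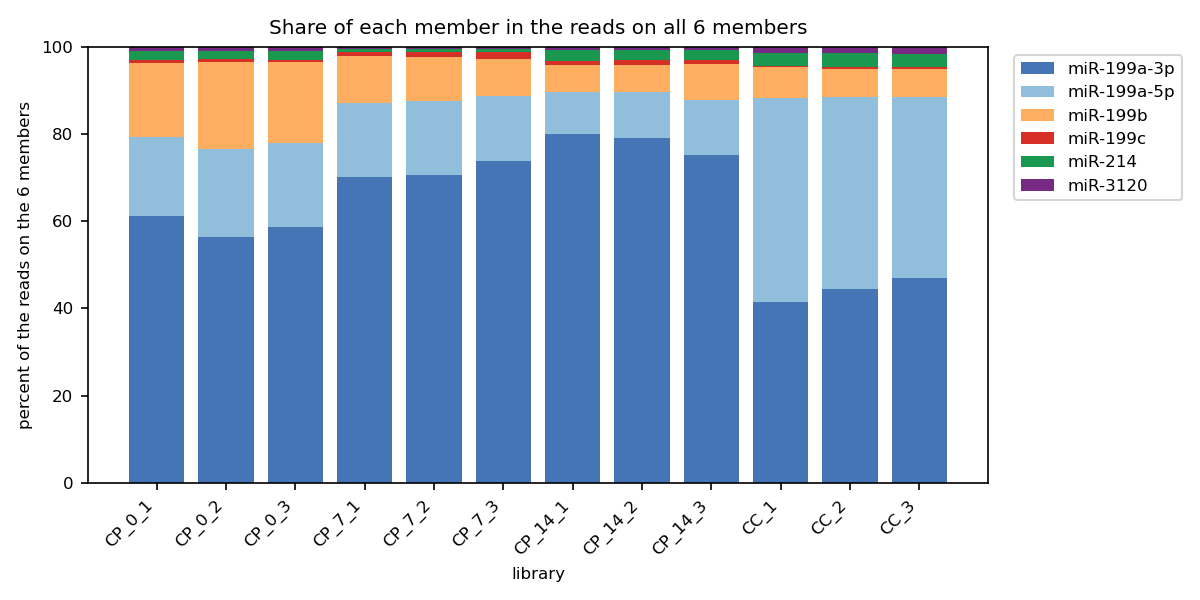
Stacked bars give the percent of the reads on all 6 members (vertical axis, 0 to 100) taken by each member in each of the 12 libraries (horizontal axis). miR-199a-3p takes 56.5% to 80.1% in the RMC libraries and 41.4% to 47.0% in CC, where miR-199a-5p takes 41.6% to 46.8%.

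miR-199a-3p was the most abundant member in 11 of 12 libraries and ranked between 6 and 15 among the 545 names. Its level in TMM-normalized RPM was 6124, 5435 and 5444 in CP_0 (replicates 1, 2 and 3, as in all lists that follow) and 10660, 12743 and 12131 in CP_7. In CP_14 it was 10978, 10535 and 9968, and in CC 4625, 4662 and 4972. The libraries of CP_7 and CP_14 overlapped on this scale and were all above those of CP_0, which were all above those of CC. From CP_0 to CP_7 miR-199a-3p rose by 1.11 ± 0.081 on the log2 scale (SE, limma, adjusted p = 2.26e-05), a direction that turned without any normalization of the reads (log2 -0.045). From CP_7 to CP_14 it fell by 0.25 ± 0.068 (adjusted p = 0.0175), but this call was lost without any 1 of the 6 libraries (-0.26 to -0.12), with RLE factors (-0.20), upper-quartile factors (-0.11) or TMM factors from the miRNAs that passed the filter (-0.16) and in 1 fit of all 12 libraries (-0.17), and it turned without normalization (0.97). CC was lower than CP_14 by a log2 difference of -1.15 ± 0.064 (adjusted p = 4.04e-07), and this kept its direction under every scaling, although it was not called without normalization (-0.22).

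miR-199a-5p, named for the opposite arm of the miR-199a hairpin, took another course. Which hairpin the reads of either arm came from was not tested. Its level was 1829.9, 1942 and 1783 TMM-normalized RPM in CP_0 and 2592, 3075 and 2415 in CP_7. In CP_14 it was 1309.6, 1388 and 1702, and in CC 5226, 4604 and 4402. CC libraries were the highest of all and CP_14 libraries the lowest, and no neighbouring groups in that order overlapped. The rise from CP_0 to CP_7 was 0.59 ± 0.095 (limma, adjusted p = 0.00129). It was not called without CP_7 replicate 1 (0.37) or CP_7 replicate 2 (0.30), and it turned without normalization (-0.57). From CP_7 to CP_14 miR-199a-5p fell by 0.96 ± 0.13 (adjusted p = 0.000661), except without normalization (0.26). In CC it was 3.23-fold higher than in CP_14 (log2 1.69 ± 0.096, adjusted p = 4.04e-07). It was called as higher under every scaling tried, at 0.98 with the library size alone and 2.62 without normalization.

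**Figure D2:**
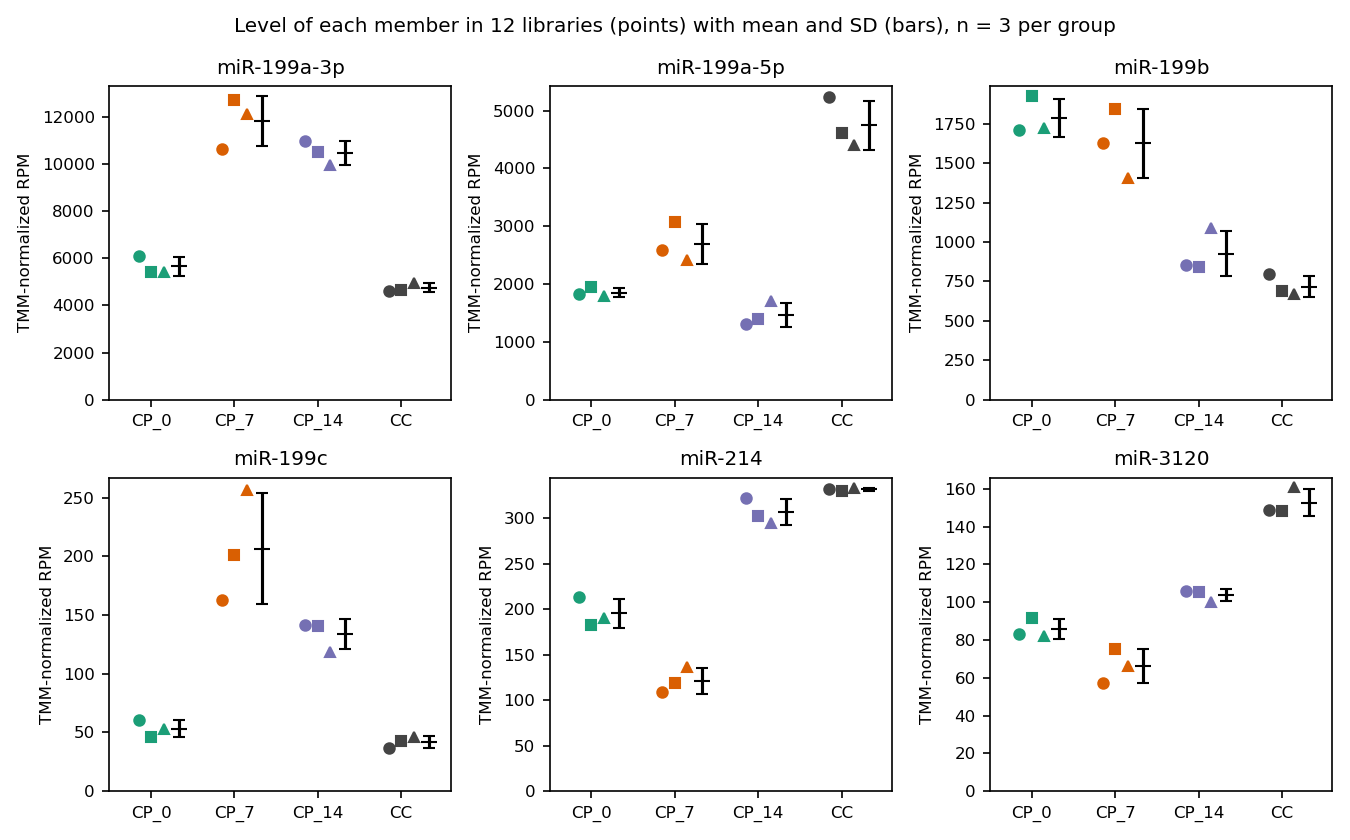
Points give the level of each member (vertical axis, TMM-normalized RPM, from 0) in the 3 libraries of each group (horizontal axis: circle, square and triangle for replicates 1, 2 and 3), with the mean and SD as a bar. On this scale miR-199a-3p and miR-199c have their highest mean in CP_7, miR-199a-5p and miR-3120 in CC, and miR-214 its lowest in CP_7, while other scalings turn some of these orders.

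The ratio of the 2 arms is taken within a library, so that depth, composition factors and the share of miR-21-5p cancel. It is a ratio of reads and not of molecules, and only its change between groups was compared. For each read of miR-199a-5p there were 3.35, 2.80 and 3.05 reads of miR-199a-3p in CP_0 and 4.11, 4.14 and 5.02 in CP_7. There were 8.38, 7.59 and 5.86 in CP_14, but 0.885, 1.013 and 1.129 in CC. The libraries of the 4 groups did not overlap in any of the 6 pairs of groups. The geometric mean went from 3.06 in CP_0 to 4.41 in CP_7 and 7.20 in CP_14, and was 1.004 in CC.

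The spread of the 4 group means of the arm ratio, 2.84 on the log2 scale from CC to CP_14 or 7.17-fold, was larger than the spread between libraries (exact permutation test over 369600 arrangements of the 12 libraries, two-sided, p = 6.49e-05, the smallest it can give, and 0.000162 after Benjamini-Hochberg adjustment over the 5 ratios tested). Between pairs of groups the log2 ratio differed by 0.53 ± 0.12 (SE) for CP_7 against CP_0, 0.71 ± 0.18 for CP_14 against CP_7 and -2.84 ± 0.18 for CC against CP_14. Each of these pairs gave an exact permutation p of 0.1, the smallest that 3 libraries against 3 allow. Since miR-199a-3p reads may come from any miR-199 hairpin with this arm, the ratio was also taken to the sum of miR-199a-5p and miR-199b, an alternative chosen after the data were seen. It was then 0.872 for CC, 1.56 for CP_0, 2.75 for CP_7 and 4.41 for CP_14, in the same order.

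**Figure D3:**
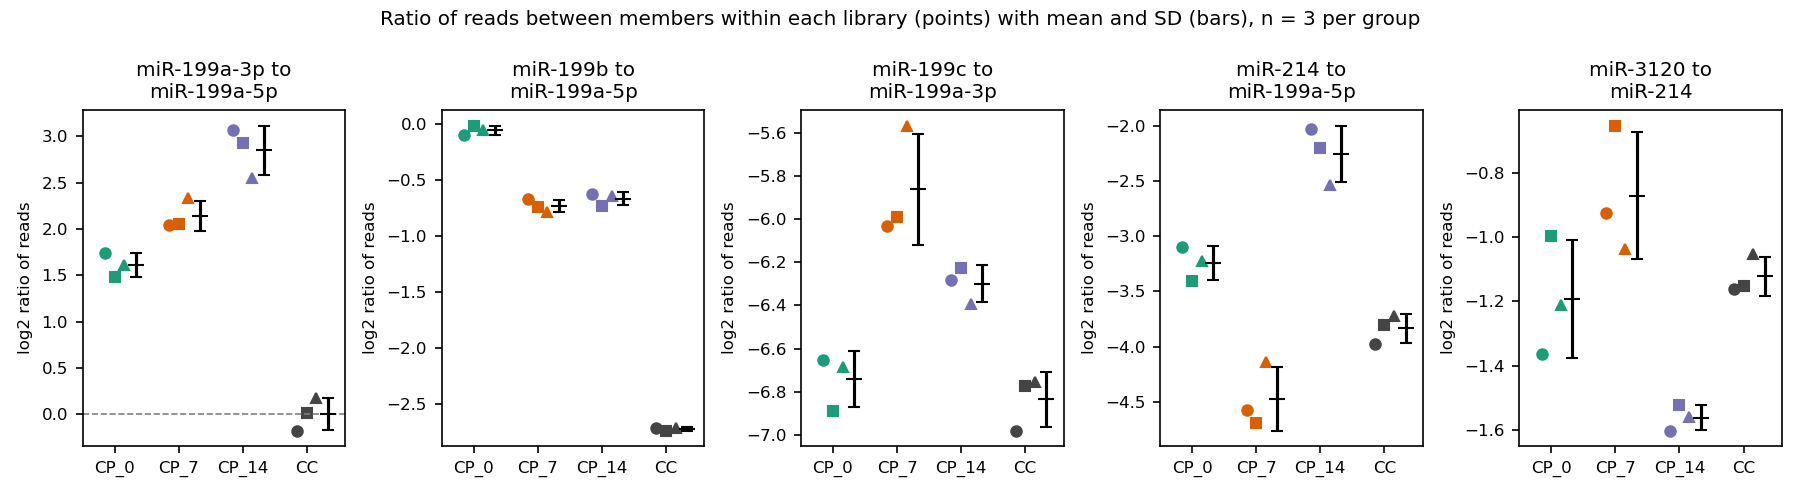
Points give the log2 ratio of reads of 1 member to another within each library (vertical axis) by group (horizontal axis), with the mean and SD of 3 libraries as a bar. The dashed line, drawn only in the panel of miR-199a-3p to miR-199a-5p, marks equal reads. The ratio of miR-199a-3p to miR-199a-5p stands at 2.55 to 3.07 in CP_14 and at -0.18 to 0.18 in CC.

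miR-199b, known in mammals from a separate miR-199 hairpin, had 1710.0, 1926 and 1724 TMM-normalized RPM in CP_0 and 1629, 1842 and 1403 in CP_7. These groups overlapped, and the difference was not called (log2 -0.09, 95% interval -0.36 to 0.17, limma, adjusted p = 0.527). It was called as higher in CP_7 with the library size alone (0.98) and as lower with upper-quartile factors (-0.44) or without normalization (-1.25). In CP_14 the level was 851, 838 and 1089, and in CC 793, 687 and 668, so that CC was the lowest group. miR-199b fell by 0.89 ± 0.14 from CP_7 to CP_14 (adjusted p = 0.00153), a fall that turned without normalization (0.33). CC was lower than CP_14 by a log2 difference of -0.37 ± 0.10 (adjusted p = 0.00914), which turned without normalization (0.56) and was not called with upper-quartile factors (-0.20) or when miR-21-5p was kept out of the totals (-0.026), and lower than CP_0 by -1.45 ± 0.079 (adjusted p = 2.11e-05).

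Set against miR-199a-5p in the same library, miR-199b had nearly equal reads in CP_0, with ratios of 0.934, 0.991 and 0.967. The ratio was 0.629, 0.599 and 0.581 in CP_7 and 0.650, 0.604 and 0.640 in CP_14, and these groups overlapped (log2 difference 0.066 ± 0.046, exact permutation p = 0.2). In CC it was 0.152, 0.149 and 0.152, and its SD of 0.014 on the log2 scale was the smallest of any group over the 5 ratios. The range of group means was 2.68 on the log2 scale or 6.39-fold (exact permutation test over all groups, p = 0.00013, adjusted 0.000216). The CP_0 libraries lay above those of CP_7 and CP_14, and all of these lay above those of CC.

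miR-199c was a minor member with 159 to 436 reads per library. Its level was 60.9, 45.8 and 53.0 TMM-normalized RPM in CP_0 and 163, 201 and 256 in CP_7. In CP_14 it was 141.2, 140.8 and 119, and in CC 36.6, 42.6 and 46.1. The groups stood in the same order as for miR-199a-3p, although CC replicate 3 lay just above CP_0 replicate 2 on this scale. miR-199c rose by 1.98 ± 0.19 from CP_0 to CP_7 (limma, adjusted p = 9.99e-05), which kept its direction under every scaling, and fell by 0.69 ± 0.18 from CP_7 to CP_14 (adjusted p = 0.0142), which turned without normalization (0.53). The call from CP_7 to CP_14 was lost when CP_7 replicate 2 (-0.61), CP_7 replicate 3 (-0.44) or the third CP_14 library (-0.62) was left out. CC was lower than CP_14 by a log2 difference of -1.66 ± 0.13 (adjusted p = 3.02e-06).

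Over the 12 libraries the log2 levels of miR-199c and miR-199a-3p had a Pearson correlation of 0.984, given as a description, since the libraries share depth and composition within a group. Whether the authors' counting listed any reads under both miR-199c and miR-199a-3p was not tested. For 1 read of miR-199a-3p there were 0.00994, 0.00843 and 0.00973 reads of miR-199c in CP_0 and 0.0153, 0.0158 and 0.0211 in CP_7. The ratio was 0.0129, 0.0134 and 0.0119 in CP_14 and 0.00792, 0.00914 and 0.00927 in CC. CP_7 stood above CP_14, which stood above CP_0 and CC, and the last pair overlapped (log2 difference -0.094 ± 0.10, exact permutation p = 0.5). The range of group means was 0.97 on the log2 scale or 1.96-fold (exact permutation test over all groups, p = 0.000325, adjusted 0.000406). From CP_0 to CP_7 alone the log2 ratio differed by 0.88 ± 0.17 (exact permutation p = 0.1).

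miR-214, the neighbour of miR-199a in DNM3OS, had its lowest TMM-normalized level in CP_7. It was 213, 183 and 190.4 TMM-normalized RPM in CP_0 and 108, 118 and 136 in CP_7. In CP_14 it was 322, 302 and 295, and in CC 332, 329.7 and 333. The libraries of CP_7 were below those of CP_0, which were below those of CP_14 and CC. miR-214 fell by 0.64 ± 0.13 from CP_0 to CP_7 (limma, adjusted p = 0.00433), which turned when only the library size was used (0.43), and rose by 1.26 ± 0.12 from CP_7 to CP_14 (adjusted p = 0.000153), which was not called with the library size alone (0.40). CC and CP_14 overlapped on the scale of that comparison and the difference was not called (log2 0.11, 95% interval -0.046 to 0.26, adjusted p = 0.174). The value ranged from -0.60 with the library size alone to 1.04 without normalization, both called, and it was also called with upper-quartile factors (0.28), with miR-21-5p kept out of the totals (0.45) and with names of shared reads collapsed (0.17).

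miR-3120, known in mammals from the opposite strand of the miR-214 hairpin, had 75 to 131 reads in the CP_7 libraries and 229 to 1043 elsewhere. Its level was 82.96, 91.7 and 82.2 TMM-normalized RPM in CP_0 and 57.1, 75.3 and 66.5 in CP_7. In CP_14 it was 106, 105 and 99.9, and in CC 149, 148 and 161. No neighbouring groups in this order overlapped. The difference between CP_7 and CP_0 was not called (log2 -0.32, 95% interval -0.66 to 0.014, limma, adjusted p = 0.0843), but many alternatives called it. It was called as lower without CP_7 replicate 2 (-0.60), by DESeq2 on the recovered reads (-0.39), with RLE factors (-0.42), upper-quartile factors (-0.67) or TMM factors from the miRNAs that passed the filter (-0.38), in 1 fit of all 12 libraries (-0.37) and without normalization (-1.47). With the library size alone it turned and was called as higher (0.74). miR-3120 rose by 0.57 ± 0.13 from CP_7 to CP_14 (adjusted p = 0.00786). CC exceeded CP_14 by 0.54 ± 0.087 (adjusted p = 0.000363), and both differences turned with the library size alone (-0.29 and -0.17). The rise was also not called with miR-21-5p kept out of the totals (0.28).

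The log2 levels of miR-214 and miR-3120 had a Pearson correlation of 0.897 over the 12 libraries, as a description. For 1 read of miR-214 there were 0.389, 0.501 and 0.432 reads of miR-3120 in CP_0 and 0.527, 0.636 and 0.487 in CP_7. There were 0.329, 0.348 and 0.339 in CP_14, and 0.448, 0.450 and 0.483 in CC. CP_14 stood below the other groups, while CP_0 overlapped with CP_7 and with CC. The range of group means was 0.69 on the log2 scale or 1.61-fold, which is the smallest of the 5 ratios (exact permutation test over all groups, p = 0.00169, adjusted 0.00169). The counts of miR-3120 in CP_7 were the lowest of any member. The log2 SD of its ratio to miR-214 there was 0.198, the largest of the 4 groups. That of miR-214 to miR-199a-5p in CP_7 was larger, at 0.291.

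miR-214 and miR-199a-5p differed in course, although in mammals both are known from DNM3OS. For 1 read of miR-199a-5p there were 0.117, 0.0942 and 0.107 reads of miR-214 in CP_0 and 0.0418, 0.0385 and 0.0565 in CP_7. The ratio was 0.246, 0.218 and 0.173 in CP_14 and 0.0635, 0.0716 and 0.0757 in CC. The 4 groups did not overlap in any pair. The spread of the 4 group means was larger than the spread between libraries (exact permutation test over all groups, p = 6.49e-05, adjusted 0.000162). The group means ranged over 2.22 on the log2 scale or 4.67-fold, between CP_7 and CP_14, and that pair alone gave an exact permutation p of 0.1.

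Members were also counted in each comparison beside the share of all miRNAs tested that were called (limma, adjusted p threshold 0.05). For CP_7 against CP_0, which covers the first 7 days of induction, 4 of 6 members were called, 3 higher and 1 lower, beside 63.8% of 246 miRNAs (35.8% higher and 28% lower), and 5 did not overlap between groups beside 67.9%. For CP_14 against CP_7, 6 of 6 were called, 2 higher and 4 lower, beside 52.8% of 246 (24.4% higher and 28.5% lower), and 6 did not overlap beside 62.2%. For CC against CP_14, the comparison of chondrocytes with induced cells, 5 of 6 were called, 2 higher and 3 lower, beside 74.6% of 276 (37.7% higher and 37% lower), and 5 did not overlap beside 78.6%. The shares of members called were near those of all miRNAs in the first and the last of these comparisons.

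The remaining comparisons share libraries with these. For CP_14 against CP_0, the net change over the days of induction, 6 of 6 members were called, 4 higher and 2 lower, beside 46% of 250 miRNAs (24.8% higher and 21.2% lower), and 6 did not overlap beside 56.4%. miR-199a-3p was higher by 0.91 ± 0.072, miR-199c by 1.33 ± 0.13 and miR-214 by 0.66 ± 0.087, and miR-199b was lower by a log2 difference of -0.94 ± 0.11, each at an adjusted p of at most 0.000679. miR-199a-5p (-0.33 ± 0.10, adjusted p = 0.0374) and miR-3120 (0.29 ± 0.092, adjusted p = 0.035) passed narrowly. The call of miR-199a-5p was lost without CP_0 replicate 1 or 2 or CP_14 replicate 1 or 2 (-0.33 to -0.28), and that of miR-3120 without CP_0 replicate 1 or 3 or CP_14 replicate 1 or 2 (0.24 to 0.28). The call of miR-3120 was also lost under 8 of 14 other settings, with values down to 0.043 (upper-quartile factors) and 0.078 (miR-21-5p kept out of the totals), and that of miR-199a-5p under 5, down to -0.16 with the library size alone.

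For CC against CP_0, 6 of 6 were called, 3 higher and 3 lower, beside 55.8% of 260 (30% higher and 25.8% lower), and 6 did not overlap beside 63.1%. miR-199a-5p was higher in CC by 1.22 ± 0.066, miR-3120 by 0.70 ± 0.077 and miR-214 by 0.63 ± 0.060, the last pair not called with the library size alone (0.29 and 0.22). miR-199a-3p (-0.38 ± 0.053) and miR-199c (-0.46 ± 0.14, adjusted p = 0.0272) were lower, but both turned without normalization (0.70 and 0.60) and neither was called with miR-21-5p kept out of the totals (-0.11 and -0.21). The call of miR-199c was lost without CP_0 replicate 1 or CC replicate 1 or 2 (-0.36, -0.36 and -0.49) and in 1 fit of all 12 libraries (-0.34). For CC against CP_7, 6 of 6 were called, 3 higher and 3 lower, beside 67.4% of 276 (29% higher and 38.4% lower), and 6 did not overlap beside 70.7%. miR-199c had the largest difference of any member in any comparison there, at a log2 of -2.53 ± 0.19 or 5.79-fold lower in CC, but it was not called without normalization (-0.23). miR-199a-3p and miR-199b were lower too (-1.59 and -1.45) but turned without normalization (0.75 and 0.88), and miR-199a-5p, miR-214 and miR-3120 were higher (0.54, 1.18 and 0.93) but turned with the library size alone (-0.85, -0.21 and -0.45). Without CP_7 replicate 2 the values for miR-199a-3p, miR-199a-5p, miR-199b and miR-3120 moved from -1.59, 0.54, -1.45 and 0.93 to -1.01, 1.16, -0.83 and 1.54, and without CP_7 replicate 1 miR-199a-5p moved to 0.91, with all calls kept. With single libraries left out, miR-214 reached 1.685 and miR-199c -2.02. The median of all miRNAs tested moved as well, from -0.089 to 0.42 without CP_7 replicate 2 and 0.21 without CP_7 replicate 1.

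**Figure D4:**
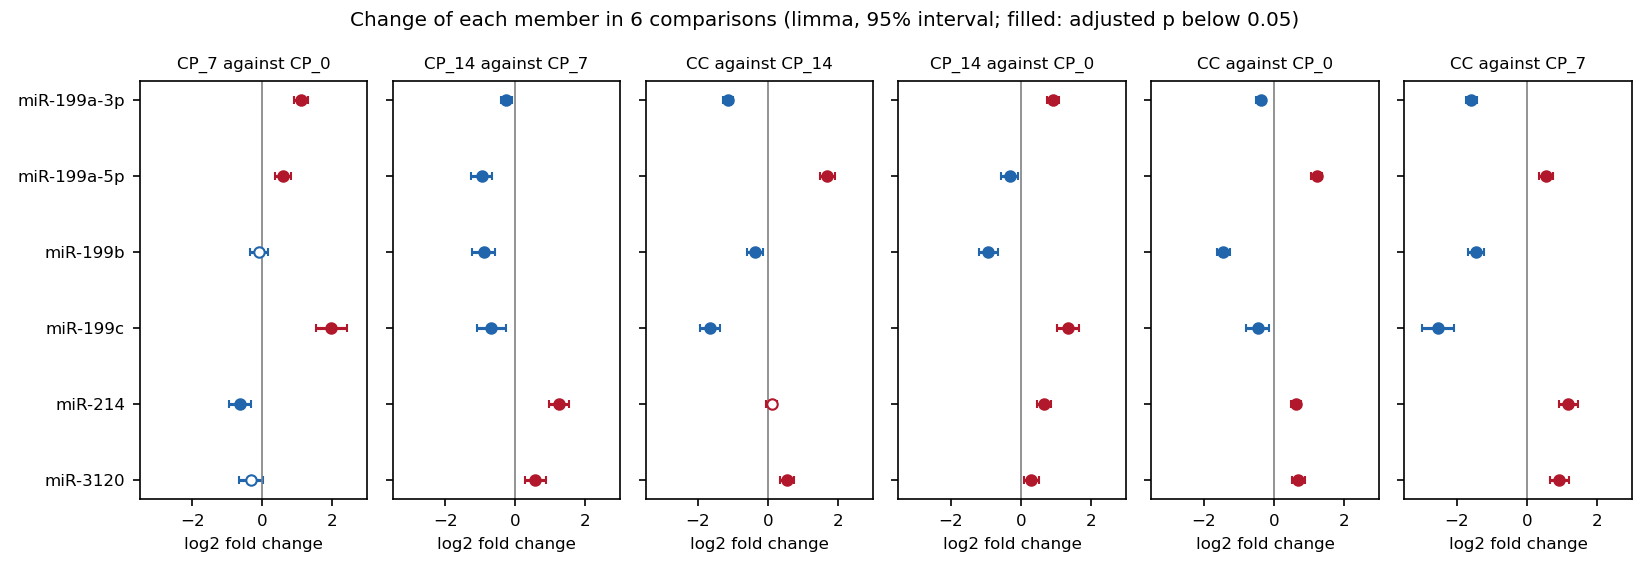
Points give the log2 fold change of each member (rows) in 6 comparisons (panels), first group minus second, with the 95% interval from limma as a bar, red above 0 and blue below, filled where the adjusted p is below 0.05. The 2 arms of miR-199a lie on opposite sides of 0 in CC against CP_14 (-1.15 and 1.69), and miR-214 at 1.26 in CP_14 against CP_7 lies opposite to the 4 miR-199 names. Directions turn with the scaling for the members listed in the text.

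Members moved in both directions in every comparison. The medians of their changes were 0.25, -0.47 and -0.13 on the log2 scale for CP_7 against CP_0, CP_14 against CP_7 and CC against CP_14, beside 0.075, -0.0089 and 0.086 for all miRNAs tested. They were 0.48, 0.12 and -0.45 for CP_14 against CP_0, CC against CP_0 and CC against CP_7, beside 0.010, 0.053 and -0.089.

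The direction of a single member against 0 depended on the scaling, and the median of all miRNAs moved with it. With the library size alone the median of all miRNAs tested stood at 1.12 for CP_7 against CP_0, -0.84 for CP_14 against CP_7 and -0.54 for CC against CP_14. Without normalization it stood at -1.04, 1.19 and 1.01. Since a scaling shifts all miRNAs of a library alike, the distance of a member from that median hardly changes by construction, and it is given only to place the members among all miRNAs. Relative to the median, miR-199a-3p stood at 0.995 to 1.07 in CP_7 against CP_0 and at -1.32 to -1.22 in CC against CP_14. On the same relative scale miR-199a-5p in CC against CP_14 stood at 1.52 to 1.62, and miR-214 in CP_14 against CP_7 at 1.24 to 1.29. miR-214 in CC against CP_14 lay at the median (-0.062 to 0.033).

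**Figure D5:**
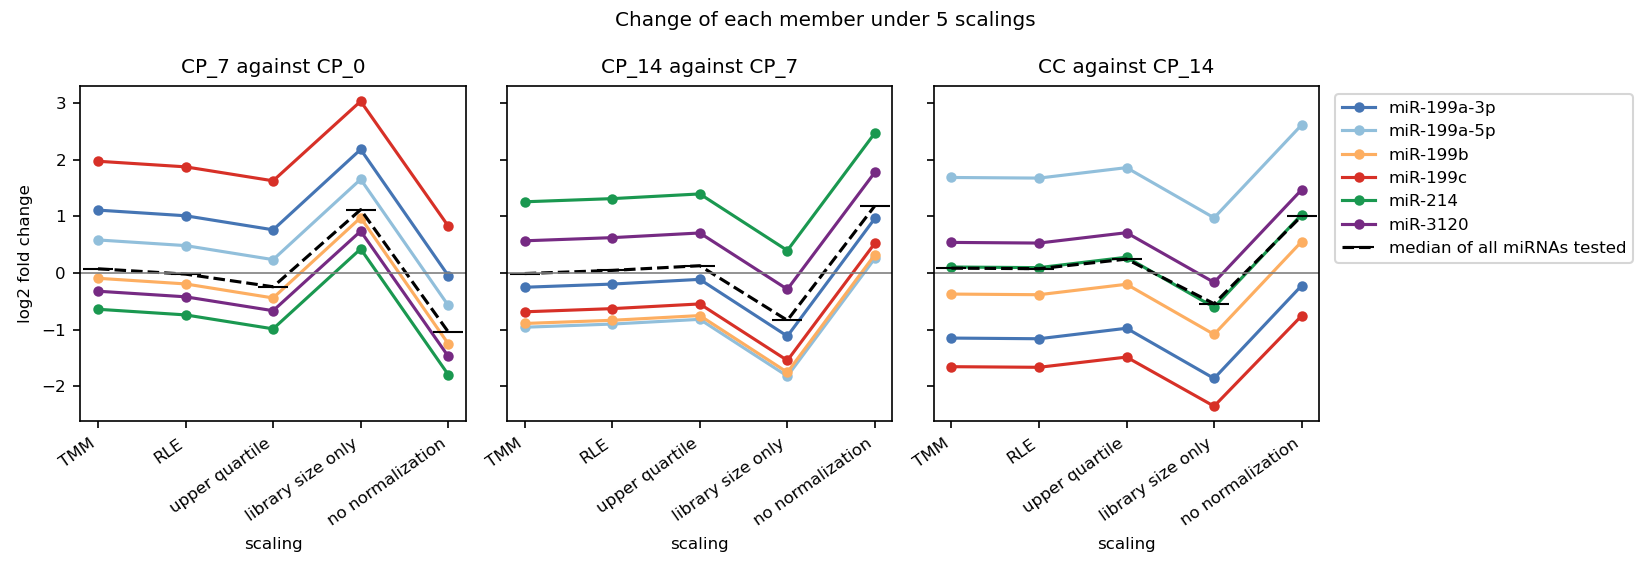
Lines give the log2 fold change of each member (vertical axis) under 5 scalings of the reads (horizontal axis) in 3 comparisons (panels), with the median of all miRNAs tested as a black dashed line. Members and median move up and down together, so that directions against 0 turn (miR-199b in CP_7 against CP_0 from -0.09 to 0.98 with the library size alone) while distances from the median hardly change, as the construction of a scaling fixes.

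Other miRNAs with known roles in skeletal and mesenchymal cells moved in both directions as well. Of a list of 17, all tested, 7 rose and 7 fell from CP_0 to CP_7, 5 rose and 6 fell from CP_7 to CP_14, and 7 were higher and 7 lower in CC than in CP_14. Of all miRNAs tested, 35.8% were called higher and 28% lower in the first of these comparisons. The shares were 24.4% and 28.5% in the second and 37.7% and 37% in the third. The list median was 0.070, -0.090 and 0.19, beside the medians of all miRNAs given above. miR-140, the cartilage miRNA under control of SOX9, fell by 1.03 ± 0.077 from CP_0 to CP_7 (limma, adjusted p = 2.65e-05) and rose by 0.87 ± 0.070 from CP_7 to CP_14 (adjusted p = 6.18e-05), as miR-214 did, but with the library size alone both differences were gone (0.047 and 0.0021). miR-221 rose by 1.86 ± 0.082 and then fell by 1.30 ± 0.078 in the same comparisons, as miR-199a-3p and miR-199c did, but neither was called without normalization (0.70 and -0.082). miR-29a rose by 0.95 ± 0.082 and fell by 0.83 ± 0.073, and both turned without normalization (-0.21 and 0.38). In CP_14 against CP_0 the list had 5 higher and 5 lower, in CC against CP_0 6 and 6, and in CC against CP_7 6 and 8. The shares of all miRNAs called higher and lower there were 24.8% and 21.2%, 30% and 25.8%, and 29% and 38.4%.

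The miRNAs whose log2 levels ran most like each member over the 12 libraries were named among 271 candidates by Pearson correlation, as a description of libraries that share depth and composition within groups. For miR-199a-3p these were miR-6529a (0.976), miR-210 (0.969), which is known for its induction by low oxygen, and miR-16a (0.968). miR-199c had miR-6529a (0.972), miR-16a (0.963) and miR-2285cl (0.945). miR-199a-5p had miR-26a (0.972), miR-6119-5p (0.959) and miR-365-3p (0.952). The 2 arms of miR-199a thus had no top miRNA in common, and their own correlation was -0.502.

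miR-214 ran most like miR-99b (0.945), miR-3431 (0.944) and miR-101 (0.906), and miR-3120 most like miR-452 (0.940), miR-204 (0.937) and miR-374b (0.925). For miR-199b the highest values were lower, with miR-212 (0.804), miR-127 (0.774) and miR-2904 (0.756). miR-199b and miR-214 had a correlation of -0.839, and miR-199b and miR-3120 one of -0.842, the most negative among members.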

How the data were processed

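For each of 12 libraries the authors deposited 1 value per miRNA under the header TPM. The RPM values were made by the authors by dividing the reads on each miRNA by the reads on all listed miRNAs, since each deposited library summed to 1000000. The submitters' processing notes name CASAVA, bcl2fastq 1.8.4 and Bowtie; other versions, the counter and the miRNA database were not given in the sources used here. Every value was a whole multiple of 1 read (100% within 0.01 read), so reads were recovered. A value of 0 reads allows up to 3 reads, for counting error only. Libraries of a group differed by more than sampling noise.

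Pairs of groups were compared with limma 3.58.1 (R 4.3.3, trend, two-sided) on log2(TMM-normalized RPM + 1), so that fold changes of low miRNAs are understated, with Benjamini-Hochberg adjustment over all miRNAs that passed edgeR 4.0.16 filterByExpr (minimum count 10, total 15). The threshold was an adjusted p of 0.05. Ratios of members used the exact permutation test of the between-group sum of squares over all groups. Pairs of groups used the exact permutation test of the difference of their means. Alternatives covered scaling, pseudocount, filter, edgeR's quasi-likelihood test and DESeq2 1.42.0 on recovered reads, leaving out libraries and a replicate block. Scripts were first tested on simulated data.

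The members and lists were chosen with earlier results of these data known. Named miRNAs are all members, miR-3604, a skeletal list with at most 4 examples, marker lists and, for each member, the 3 miRNAs with the highest correlation.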

Additional observations from a re-analysis of the deposited data

How the results depend on the processing

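The 5 ratios kept their direction and their side of the threshold under all alternatives. Leaving out 1 library gave log2 ranges of 2.73 to 2.99 (miR-199a-3p to miR-199a-5p), 2.655 to 2.698 (miR-199b to miR-199a-5p), 0.83 to 1.06 (miR-199c to miR-199a-3p), 2.11 to 2.39 (miR-214 to miR-199a-5p) and 0.58 to 0.77 (miR-3120 to miR-214), with exact permutation p of at most 0.00649. Of 720 values of single members under alternatives, 632 kept direction and side, 54 lost their call, 13 gained one and 21 turned, and the cause was not tested. With an added threshold of 2-fold the members called were 2 for CP_7 against CP_0, 1 for CP_14 against CP_7 and 3 for CC against CP_14. They were 1 for CP_14 against CP_0 and 2 for CC against CP_0. For CC against CP_7 they were miR-199a-3p (-1.59), miR-199b (-1.45), miR-199c (-2.53) and miR-214 (1.18). Of all miRNAs tested, the same threshold called 109 of 246, 76 of 246, 98 of 276, 48 of 250, 51 of 260 and 132 of 276 in this order of comparisons. Without normalization, and by the adjusted p alone, 3 members were called for CP_14 against CP_7, beside 160 of 246 miRNAs.

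With the library size alone the values that turned were, for CP_7 against CP_0, miR-199b 0.98, miR-214 0.43 and miR-3120 0.74. For CP_14 against CP_7 it was miR-3120 -0.29, for CC against CP_14 miR-214 -0.60 and miR-3120 -0.17, and for CC against CP_7 miR-199a-5p -0.85, miR-214 -0.21 and miR-3120 -0.45. Without normalization they were miR-199a-3p -0.045 and miR-199a-5p -0.57 for CP_7 against CP_0, and miR-199a-3p 0.97, miR-199a-5p 0.26, miR-199b 0.33 and miR-199c 0.53 for CP_14 against CP_7. They were miR-199b 0.56 for CC against CP_14, miR-199a-3p 0.70 and miR-199c 0.60 for CC against CP_0, and miR-199a-3p 0.75 and miR-199b 0.88 for CC against CP_7. When the totals excluded miR-21-5p, miR-199b stood at 0.028 for CP_7 against CP_0. The count test of edgeR on recovered reads called, over all miRNAs, 160 for CP_7 against CP_0, 134 for CP_14 against CP_7, 104 higher and 101 lower for CC against CP_14, 112 for CP_14 against CP_0, 76 higher and 66 lower for CC against CP_0 and 190 for CC against CP_7.

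Replicate numbers are shared between groups, but the labels do not state that they pair libraries. The deviations of same-numbered libraries had correlations of only -0.355 to 0.178. These were above 0 for every replicate number only in CC against CP_7 (0.161, 0.0892 and 0.178). The numbers were not read as pairs. With the replicate block 3 members were called for CP_14 against CP_7, beside 100 of 246 miRNAs. There were 4 for CP_14 against CP_0, beside 105 of 250, and 5 for CC against CP_0, beside 118 of 260. The other member counts did not move. The member calls lost were miR-199a-3p, miR-199c and miR-3120 in the first, miR-199a-5p and miR-3120 in the second and miR-199c in the third. No other member call changed. In each of these comparisons the block also called fewer of all miRNAs than the fit without it. With the block the ratios gave p of 0.00174 to 0.00521. The depth of CP_7 limits miR-3120 most, with 75 to 131 reads per library.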
